A study of Homo sapiens with 37 samples.

Results

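The ZBTB genes are the paralogs of ZBTB7A, the gene disrupted in this experiment. They were taken as the protein-coding genes whose symbol is ZBTB followed by a digit, without pseudogenes, antisense or divergent transcripts, and without ZBTB8OS, which is named for its place opposite ZBTB8 and is no member of the family. Of 41 such genes in the annotation, 36 had a row in the table of 32055 genes and are described here over all 37 libraries. The other 5, ZBTB8A, ZBTB8B, ZBTB9, ZBTB12 and ZBTB22, were not analysed here.

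The cells were K562, a human line grown from an erythroleukemia. Of the libraries, 26 were labelled KO, from cells electroporated with a plasmid carrying Cas9, GFP and a gRNA against ZBTB7A, and 11 were labelled Control, from cells given the same plasmid without a gRNA. GFP-positive cells were sorted singly and expanded, so that each line is 1 clone, but the labels name a library by its 6-base barcode alone and tie none to a clone or a gRNA. Libraries of 1 group may therefore include repeats of a clone, and the p-values measure the spread between libraries.

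ZBTB proteins are transcription factors with a BTB domain at the amino end, through which they dimerize and recruit corepressor complexes with histone deacetylases, and with C2H2 zinc fingers near the carboxyl end that bind DNA. Most of those studied act as repressors, and several steer blood cell fates. ZBTB7A, also known as LRF or Pokemon, is required for erythroid maturation and represses the fetal globin genes in adult red cells, while its relative ZBTB7B (ThPOK) directs T cells to the CD4 lineage.

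The stretches upstream of 4 of these genes are shown because ZBTB7A is the disrupted gene and ZBTB46, ZBTB4 and ZBTB37 are members whose transcripts rose in KO, as described further on. ZBTB10 rose as well, and its stretch is not shown here. Each is the 250 bases before a transcription start, taken from RefSeq (GRCh38.p14) and written 5′ to 3′ on the strand of the gene. The RefSeq start need not be the outermost start of the GENCODE gene: the ZBTB46 and ZBTB37 stretches lie wholly inside the GENCODE spans given with these genes, that of ZBTB4 partly, and that of ZBTB7A ends where its gene begins. ZBTB7A lies on the minus strand at chr19:4066900-4067149, ZBTB46 on the minus strand at chr20:63831265-63831514, ZBTB4 on the minus strand at chr17:7484250-7484499, and ZBTB37 on the plus strand at chr1:173868130-173868379. Capitals mark the 5 letters GACCC, a core of the sequence bound by ZBTB7A, and GGGTC, the same letters on the other strand.
ZBTB7A: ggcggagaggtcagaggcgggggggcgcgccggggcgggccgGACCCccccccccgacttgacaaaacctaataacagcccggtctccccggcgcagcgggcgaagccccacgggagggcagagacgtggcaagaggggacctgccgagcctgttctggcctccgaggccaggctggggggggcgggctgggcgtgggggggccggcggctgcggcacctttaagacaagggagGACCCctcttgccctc
ZBTB46: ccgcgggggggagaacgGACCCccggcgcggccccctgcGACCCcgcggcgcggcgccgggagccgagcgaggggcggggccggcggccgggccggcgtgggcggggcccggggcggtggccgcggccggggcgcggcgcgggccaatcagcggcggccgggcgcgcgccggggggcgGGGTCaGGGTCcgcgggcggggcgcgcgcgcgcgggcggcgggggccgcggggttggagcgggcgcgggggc
ZBTB4: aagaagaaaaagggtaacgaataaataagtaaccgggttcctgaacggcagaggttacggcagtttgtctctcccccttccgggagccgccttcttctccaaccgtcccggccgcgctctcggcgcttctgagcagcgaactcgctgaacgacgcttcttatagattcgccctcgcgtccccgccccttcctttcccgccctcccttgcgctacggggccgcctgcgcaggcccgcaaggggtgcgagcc
ZBTB37: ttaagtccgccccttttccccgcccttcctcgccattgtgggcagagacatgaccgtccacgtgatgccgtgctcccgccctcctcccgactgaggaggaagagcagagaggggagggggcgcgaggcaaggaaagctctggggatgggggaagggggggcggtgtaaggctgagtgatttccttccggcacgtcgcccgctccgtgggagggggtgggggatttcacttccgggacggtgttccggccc
The ZBTB46 stretch held 4 matches, whose first bases lie 233, 211, 72 and 66 bases before the start, in a sequence of 91.6% G and C. The ZBTB7A stretch held 2, at 208 and 16 bases before the start, and those of ZBTB4 and ZBTB37 held none. For comparison, 42.1% of all 35116 annotated starts had at least 1 match in such a window, 13.5% at least 2 and 0.886% at least 4. Those windows were 57.2% G and C, so the base content of the ZBTB46 stretch differs from theirs. The part of base content in its 4 matches was not tested. Among the 62 starts listed for 30 of the 36 ZBTB genes, with 59.8% G and C, 25 had a match, or 40.3%, close to the share of all starts. At least 2 matches were found in 11.3% of them and at least 4 in 1.61%. A match describes the letters of the window and does not show binding.

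The values are counts of unique molecular identifiers (UMIs), each standing for 1 captured transcript end. Total UMIs ran from 563235 in the control library GTTTAT to 4710809, with group medians of 2030965 in KO and 3518944 in control. Erythroid and progenitor genes of K562 were abundant, with summed levels of 3360 to 9890 CPM (UMI counts scaled to library size) over 10 genes in KO and 4310 to 9210 in control. Of these genes 2 were higher and 4 lower in KO at an adjusted p below 0.05, against 17.7% and 16.2% of all tested genes. LMO2 and TAL1 were higher (log2 fold changes 0.51 and 0.39), and NFE2, TFRC, KLF1 and GATA1 lower (-0.52, -0.37, -0.22 and -0.19). Of the T cell markers, CD3E and CD2 had 6 and 1 UMIs in all 37 libraries together, while CD3D had 1498 and was lower in KO (log2 fold change -1.85). Summed B cell and monocyte markers stayed at or below 4.99 CPM in every library. Epithelial markers (EPCAM, KRT18 and CDH1) summed to 323 to 543 CPM in KO and 397 to 585 in control. EPCAM was lower in KO (log2 fold change -0.75, edgeR adjusted p = 1.37e-08), with 25 of 26 KO libraries below all controls, while KRT18 at 0.31 and CDH1 at -0.30 did not pass. The part of these differences in the values below was not tested. Barcodes were unevenly split, with 12 GC-rich barcodes in KO and 1 in control, and AT-rich ones in 12 KO and 8 control libraries. At ZBTB46 and ZBTB10 the KO-labelled library GGCCAC lay within the control range, as did other KO libraries, and its values are given there. In bulk RNA, fewer cells that express a gene and less RNA of it per cell cannot be told apart.

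Most of the 36 genes with a row were detected in each library, over a wide range of levels. All 32055 rows of the table held at least 1 count. Detection in some library therefore follows from having a row. A library held 354 to 3159 UMIs of ZBTB genes and detected 32 to 36 of the 36. The levels summed over the 36 genes were 661.0 to 756.9 CPM in KO (median 703.8) and 633.0 to 730.1 CPM in control (median 678.9). The groups thus overlapped over most of their range, although the mean was higher in KO. It was 704.4 CPM in KO (SD 24, n = 26) and 675.7 CPM in control (SD 28.3, n = 11). This difference was not tested. Because SCRB-seq reads transcript ends, these levels do not scale with transcript length. Other differences in capture between genes were not tested, so the order of genes by level is approximate.

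ZBTB44, a member whose role is little described, was the most abundant. Its level ran from 6.54 to 7.21 log2 CPM in KO (median 6.89) and from 6.58 to 7.10 in control (median 6.97). ZBTB7A itself came second, and the methyl-CpG binding protein ZBTB38, ZBTB11, and ZBTB33 (Kaiso), which also binds methylated CpG, followed. Mean levels over all libraries were 118 CPM for ZBTB44, 59.9 for ZBTB7A, 51.5 for ZBTB38, 40.6 for ZBTB11 and 34.8 for ZBTB33. The next neighbours, ZBTB40 at 34.4 and ZBTB2 at 31.5 CPM, lay within 1 SD of ZBTB33 between libraries (5.26 CPM in KO). At the other end, ZBTB7C had 9 UMIs in 8 of the 37 libraries and ZBTB32, a lymphoid member, 6 UMIs in 5 libraries.

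KO and control libraries were compared by edgeR's quasi-likelihood test over all 10661 genes that passed the filter on low counts. Of the ZBTB genes, 29 passed the filter and 7 did not. At an adjusted p below 0.05, 4 of the 29 were higher in KO, namely ZBTB46, ZBTB10, ZBTB4 and ZBTB37, and 0 were lower. Among all tested genes 17.7% were higher and 16.2% lower by this rule, or 33.8% in both directions. With an absolute log2 fold change above 0.5 as well, 1 member was called, ZBTB46, while 10.2% of all tested genes were called, 6.65% higher and 3.53% lower. The share of members called was thus below the background in both rules. The members were lower in level, with a median of 15.1 CPM against 34.3 CPM over all tested genes. The part of level in this share was not tested. Without adjustment 1 member, ZBTB11, had p below 0.05 and a lower level in KO, and limma-voom and DESeq2 also found 0 lower members after adjustment, against 2 and 1 before it. The median log2 fold change was 0.043 over the 29 members and -0.005 over all tested genes, and the median size of change 0.117 against 0.152. No member had KO libraries free of overlap with the controls, which held for 0.281% of all tested genes.

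ZBTB46, known as zDC, is a factor of classical dendritic cells and their progenitors and is also found in endothelium. The gene spans 63743668 to 63832038 of chromosome 20 (GRCh38, minus strand, 5 exons). Its UMI counts were 7 to 39 in KO (median 21) and 2 to 17 in control (median 14), although the control libraries were deeper. In log2 CPM the KO libraries ran from 2.14 to 3.96 with a median of 3.25, and the controls from 1.81 to 2.70 with a median of 2.15. Of the 26 KO libraries, 23 lay above the highest control, GGGATT. The other 3 were AAATTG at 2.69, GGAGCC at 2.39 and GGCCAC at 2.14, which were inside the control range. ZBTB46 rose from 3.97 ± 1.01 CPM (SD, n = 11) to 8.90 ± 2.62 CPM (SD, n = 26). The log2 fold change of 1.14 (standard error 0.16, 95% interval 0.82 to 1.46, edgeR adjusted p = 3.9e-07) corresponds to a 2.21-fold rise. Without GGCCAC it was 1.17, and among libraries with AT-rich barcodes, 12 KO and 8 control, it was also 1.17. Over 8 alternative settings the adjusted p ran from 1.21e-09 to 6.13e-05. The filter asks for about 4.39 CPM, which 25 KO and 3 control libraries reached, so the gene entered the test through the group in which it is high.

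The last exon of ZBTB46 overlaps the 3′ end of SLC2A4RG, a gene on the plus strand, and the spans of these genes share 383 bases. Whether the counting used strand is not given in the sources used here. If it did not, reads of the shared part cannot be told apart. SLC2A4RG had 14 to 132 UMIs per library and a mean of 4.66 log2 CPM in control (SD 0.26, n = 11) and 5.08 in KO (SD 0.26, n = 26). It rose by 0.42 on the log2 scale (standard error 0.10, edgeR adjusted p = 7.16e-04). Its part in the change of ZBTB46 was not tested.

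ZBTB10 binds a variant telomeric repeat and represses SP transcription factor genes. The gene spans 80485619 to 80526265 of chromosome 8 (plus strand, 6 exons). KO libraries had 27 to 161 UMIs, or 4.42 to 5.47 log2 CPM (median 4.88), and controls 9 to 103 UMIs, or 3.99 to 4.69 log2 CPM (median 4.54). In 19 of 26 KO libraries the level was above the highest control, AAGATT, and in none below the lowest. GGCCAC, at 4.49, was within the control range, as were other KO libraries, of which TAAGAT was lowest at 4.42. The change from 21.3 ± 3.32 CPM (SD, n = 11) to 29.8 ± 5.85 CPM (SD, n = 26) gave a log2 fold change of 0.48 (standard error 0.09, edgeR adjusted p = 9.96e-05). The 95% interval, 0.29 to 0.67, holds the threshold of 0.5, and the call against it moved with the processing.

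ZBTB4, the third member that rose, binds methylated CpG, as do ZBTB33 and ZBTB38. The gene spans 7459366 to 7484263 of chromosome 17 (minus strand, 4 exons). Levels were 3.32 to 4.64 log2 CPM in KO (median 4.03) and 3.24 to 4.08 in control (median 3.77), with 9 KO libraries above the highest control, GTTTAT. The mean rose from 12.6 ± 2.32 CPM (SD, n = 11) to 16 ± 3.32 CPM (SD, n = 26), and the log2 fold change was 0.36 (standard error 0.10, edgeR adjusted p = 0.00673). After thinning every library to the smallest total it was 0.55. Over 10 alternative settings the adjusted p ran from 0.00196 to 0.0258. Its 2 relatives did not pass the test. For ZBTB38 the log2 fold change was 0.25 (95% interval 0.01 to 0.50, edgeR adjusted p = 0.106). Its KO libraries were spread from 4.80 to 6.38 log2 CPM around a median of 5.82, while the controls stayed between 5.11 and 5.91 with a median of 5.50, and 10 KO libraries lay above and 2 below them. ZBTB38 passed among AT-rich barcodes (log2 fold change 0.37, edgeR adjusted p = 0.0462), with surrogate variables (0.23, edgeR adjusted p = 0.00623), and without the KO library TTATTG (0.29, edgeR adjusted p = 0.0462). Over its 10 alternative settings the adjusted p reached 0.273. ZBTB33 had a log2 fold change of -0.13 (95% interval -0.29 to 0.04, edgeR adjusted p = 0.235), and every KO library, from 4.53 to 5.58 log2 CPM, was inside the control range of 4.47 to 5.67.

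ZBTB37, for which little function is described, spans 173868082 to 173903547 of chromosome 1 (plus strand, 5 exons). Levels were 3.34 to 4.66 log2 CPM in KO (median 4.01) and 3.28 to 4.10 in control (median 3.55), with 12 of 26 KO libraries above the highest control, ATGAAT. The lowest KO library was GGCCAC. The mean rose from 11.9 ± 2.26 CPM (SD, n = 11) to 15.5 ± 3.21 CPM (SD, n = 26), a log2 fold change of 0.34 (standard error 0.10, edgeR adjusted p = 0.00937). Among AT-rich barcodes it was 0.24 and no longer passed (edgeR adjusted p = 0.203), while with barcode class as a covariate it was again 0.34 (edgeR adjusted p = 0.0210). In the other 7 of its 9 alternative settings it passed as well. The last exons of ZBTB10, ZBTB4 and ZBTB37 overlap no other counted gene in the canonical transcripts.

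Among the ZBTB7 genes, none passed the test. ZBTB7A had 62 to 314 UMIs in KO and 21 to 296 in control libraries. Its level was 5.42 to 6.39 log2 CPM in KO (median 5.92) and 5.26 to 6.18 in control (median 5.82), and 5 KO libraries exceeded every control. The log2 fold change of 0.12 (95% interval -0.06 to 0.30, edgeR adjusted p = 0.331) allows a rise of up to 0.30 and a fall of up to 0.06. With 7 surrogate variables it passed (log2 fold change 0.20, edgeR adjusted p = 0.0103), and over 10 alternative settings the adjusted p ran up to 0.855. Counting transcript ends shows neither an edit in the coding sequence nor the amount of protein, so this level is no check of the labels. The authors checked their expanded clones for ZBTB7A by Sanger sequencing and by Western blot. ZBTB7B was far lower, with means of 5.54 CPM in KO (SD 1.88, n = 26) and 5.85 CPM in control (SD 1.6, n = 11). It ran from 1.85 to 3.54 log2 CPM in KO (median 2.6) and from 1.36 to 3.02 in control (median 2.82), and its log2 fold change was -0.16 (95% interval -0.47 to 0.15, edgeR adjusted p = 0.447). ZBTB7C was under the filter, with at most 2 UMIs in a KO and 1 in a control library.

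Apart from the ZBTB7 genes above, 8 members were grouped here under blood and lymphoid development. Of these, 4 were tested, and ZBTB46 was the single one to pass, while 33.8% of all tested genes passed. ZBTB17 (MIZ1), a partner of MYC, had a log2 fold change of -0.04 (95% interval -0.29 to 0.22), yet its KO libraries ran from 3.79 to 5.20 log2 CPM around a median of 4.53, with 5 above all controls and 8 below all of them. The controls lay between 4.18 and 4.84 with a median of 4.50. ZBTB1, needed for lymphoid development, and ZBTB25 had log2 fold changes of -0.12 and -0.14 and did not pass. The remaining 4 were under the filter. ZBTB16 (PLZF), a fusion partner of RARA in promyelocytic leukemia, had up to 12 UMIs in a KO library (median 4.5) and up to 4 in a control library (median 2). Scaled to library size the mean was 2.23 CPM in KO (SD 1.27, n = 26) and 0.913 CPM in control (SD 0.971, n = 11). In a fit without the filter on low counts its log2 fold change was 1.56 (standard error 0.34, edgeR adjusted p = 4.65e-04). Of the 26 KO libraries, 3 exceeded every control. The highest control was the shallow library GTTTAT, at 2.12 log2 CPM from 2 UMIs. The next control was TACTAT at 0.96, below the KO median of 1.44. ZBTB24, mutated in an immunodeficiency with centromeric instability, ZBTB20 and ZBTB32 had log2 fold changes of -0.02, -0.02 and 0.12 in that test and did not pass.

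The telomere protein ZBTB48 (TZAP), unlike ZBTB10, had a log2 fold change of 0.04 (95% interval -0.19 to 0.28). None of the 3 members tied to p53 and its target CDKN1A passed, while 33.8% of all tested genes did. Role groups of this size are too small to set against that share. The log2 fold changes of these 3 members were 0.04 for ZBTB2, -0.17 for ZBTB5 and -0.07 for ZBTB49. ZBTB2, a repressor of CDKN1A, ran from 4.65 to 5.37 log2 CPM in KO (median 5) and from 4.59 to 5.20 in control (median 5). ZBTB49, an activator of it, ran from 1.67 to 3.20 in KO (median 2.51) and from 1.94 to 3.52 in control (median 2.57). In ZBTB2 4 KO libraries lay above all controls, in ZBTB49 4 lay below all of them, and the other 22 KO libraries of each were within the control range. For ZBTB5, KO libraries ran from 3.82 to 5.26 log2 CPM (median 4.78) against 4.59 to 5.24 in control (median 4.86), and 7 KO libraries were below the lowest control. Of the 4 members studied in the nervous system and muscle, ZBTB14, ZBTB42 and ZBTB45 were tested and did not pass, with log2 fold changes of 0.05, 0.25 and 0.05. ZBTB42, linked to muscle, ran from 0.95 to 3.54 log2 CPM in KO (median 2.76) and from 1.97 to 3.01 in control (median 2.46), with 8 KO libraries above and 3 below all controls. ZBTB18 (RP58), a repressor in developing neurons, was under the filter with 0 to 21 UMIs per library.

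While 33.8% of all tested genes passed, ZBTB37 rose among the 12 tested members outside these groups, and the other 11 did not pass. They include ZBTB44 and ZBTB11, for which the intervals were -0.16 to 0.08 and -0.28 to -0.01 and the edgeR adjusted p-values 0.626 and 0.101. ZBTB11 was at 4.98 to 5.62 log2 CPM in KO (median 5.30) and 5.22 to 5.78 in control (median 5.41), with 8 KO libraries below the lowest control and none above the highest. Among AT-rich barcodes it fell by 0.23 on the log2 scale (edgeR adjusted p = 0.0332), and over its 10 alternative settings the adjusted p reached 0.793. ZBTB41 had KO values from 2.71 to 4.05 log2 CPM (median 3.59) against 3.47 to 3.85 in control (median 3.61), and 10 KO libraries lay below and 2 above all controls. Its BCV, the spread beyond counting error described further on, was nevertheless at the lower limit of the estimate in both groups. ZBTB21 ran from 3.69 to 4.86 in KO (median 4.43) and 4.26 to 4.69 in control (median 4.43), with 7 KO libraries below and 5 above all controls, and its BCV was 0.109 in KO and at the lower limit in control. The log2 fold changes were -0.07 for ZBTB41 and 0.01 for ZBTB21. ZBTB40 had KO values of 4.74 to 5.52 (median 5.18) and control values of 4.59 to 5.39 (median 5.06), a log2 fold change of 0.14. ZBTB39, at 3.72 to 4.73 in KO (median 4.22) and 3.41 to 4.96 in control (median 3.98), had 0.18. It passed with limma-voom (0.25, adjusted p = 0.0497) and with surrogate variables (0.28, edgeR adjusted p = 0.0303), and its direction turned after thinning (-0.09, edgeR adjusted p = 0.752). ZBTB3 was low, at 1.39 to 3 in KO (median 2.41) and 1.03 to 2.94 in control (median 2.36), and its log2 fold change was 0.09. ZBTB47, with 214 UMIs in all, was under the filter. Over the 25 members that did not pass, the log2 fold changes lay between -0.17 and 0.25. For 23 of them the 95% interval stayed within 0.5 of 0, and for ZBTB38 and ZBTB42 it reached past 0.5.

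Some ZBTB genes are neighbours on a chromosome. ZBTB6 and ZBTB26, 2242 bases apart on chromosome 9, were at 0.06 and -0.01 on the log2 scale. Farther along that chromosome ZBTB43 and ZBTB34, separated by 22428 bases, were at 0.02 and 0.06. ZBTB1 and ZBTB25 on chromosome 14, which start head to head and share 1502 bases, were at -0.12 and -0.14. None of the 6 passed the test, and chromosome 9 in all held 5 of the 36 members.

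The KO libraries differed among themselves more than the controls at many members. The biological coefficient of variation (BCV), edgeR's estimate of the spread beyond counting error as a fraction of the level, had a median of 0.115 among KO and 0.0621 among control libraries over the 29 tested members. It was larger in KO for 19 of 29 members, or 65.5%, and for 69.6% of all tested genes, whose medians were 0.119 and 0.0754. The estimates were largest in KO for ZBTB42 (0.269 against 0.0934 in control), ZBTB38 (0.257 against 0.131) and ZBTB17 (0.255 against 0.0621). ZBTB7A had a BCV of 0.160 in both groups. ZBTB3, ZBTB49 and ZBTB39 were more variable among the controls, at 0.320, 0.218 and 0.204 against 0.193, 0.115 and 0.104. The control estimates rest on 11 libraries and are less certain, and 9 of them sit at the lower limit of the estimate.

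By how often a KO library was the highest or lowest of its group, no single one stood apart over the tested members. GGCCAC was the lowest KO library for 4 members (ZBTB34, ZBTB37, ZBTB39 and ZBTB46) and the highest for ZBTB44. CCCCGT was the lowest for 3 and the highest for 2, among them ZBTB38. Among controls the shallowest library, GTTTAT, was the highest for 8 and the lowest for 9 of the 29 members, and counting error is largest there.

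The 8 BTB zinc finger genes that carry other symbols had 5 tested members, of which 2 rose, against 17.7% of all tested genes. HIC2, a repressor of BCL11A, was far above the ZBTB genes in level, with means of 8.93 log2 CPM in KO (SD 0.23, n = 26) and 8.46 in control (SD 0.20, n = 11). HIC2 rose by 0.47 on the log2 scale (standard error 0.08, edgeR adjusted p = 1.18e-05), and 21 of 26 KO libraries exceeded every control. PATZ1 rose by 0.32 on the log2 scale (standard error 0.11, edgeR adjusted p = 0.0246). BCL6B was under the filter and, without that filter, lower in KO by the fit (log2 fold change -2.40, standard error 0.50, edgeR adjusted p = 8.08e-04), from 129 UMIs in all. Control libraries held 0 to 24 of its UMIs and KO libraries 0 to 11, so no KO library lay below all controls. Of 11 corepressor genes that serve BTB proteins, all tested, HDAC3 and BCOR were higher and TBL1XR1 lower at log2 fold changes of 0.26, 0.15 and -0.17 (edgeR adjusted p = 3.56e-05, 0.0462 and 0.00831), and the other 8, SIN3A and HDAC1 among them, did not pass. Of all tested genes 17.7% were higher and 16.2% lower by this rule, so the share of these genes is near or below the background.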

How the data were processed

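Bulk SCRB-seq libraries of K562 were analysed. The authors mapped reads to hg38 with STAR (2.6.0a in the submitters' processing notes) and counted UMIs per Ensembl GRCh38.84 gene with zUMIs, whose version is not given in the sources used here. The deposited UMI counts are raw. Columns were matched to samples by barcode. Symbols and positions came from GENCODE release 44 (GRCh38), which paired 31323 of 32055 identifiers and is later than the annotation counted.

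edgeR 4.0.16 in R 4.3.3 was fitted to the counts (filterByExpr, TMM, robust quasi-likelihood, group as the only term, Benjamini-Hochberg adjustment over 10661 genes). Standard errors are the log2 fold change over the root of F, in size. Log2 CPM used a prior count of 2. On simulated counts for 10521 genes, 94.5% of 200 genes changed by 1 on the log2 scale were recovered, with 0 false calls. The simulated libraries were independent and shared a BCV of 0.154 over all genes. This check therefore does not cover repeats of a clone, differences in spread between genes or smaller changes. Alternatives used limma 3.58.1, DESeq2 1.42.0 and sva 3.50.0.

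Genes named with full values were ZBTB7A, ZBTB7B, ZBTB7C, every member with an adjusted p below 0.05 and the 5 most abundant. Of the other members some are named for their role or spread, chosen after their values were seen. The members and lists were chosen with earlier results of these data known. A gene of the corepressor list is not reported here.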

Additional observations from a re-analysis of the deposited data

How the results depend on the processing

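The count of ZBTB members called (adjusted p below 0.05, absolute log2 fold change above 0.5), 1 with edgeR and TMM, stayed at 1 with limma-voom, DESeq2 and RLE size factors. All called members were higher in KO, under each setting. It was 2 with library size alone, with every gene of at least 1 count tested, with barcode class as covariate, with 7 surrogate variables, among AT-rich barcodes and after thinning to 563235 UMIs, and 0 with a mean of at least 10 CPM, where ZBTB46 was not tested. The added member was ZBTB10 with library size alone, barcode class and surrogate variables (log2 fold changes 0.51, 0.50 and 0.51), ZBTB16 without the filter, and ZBTB4 among AT-rich barcodes (0.51). After thinning, ZBTB46 was again untested, and ZBTB10 and ZBTB4 were called at 0.50 and 0.55. Leaving out each library in turn gave 1 to 2 called members, all higher, and 2 without the control library AAGATT, without the control library TTAATC and without the control library TTGAAA, through ZBTB10. With an adjusted p below 0.01 the count was 1, and with no fold threshold 4, all higher.

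Members with an adjusted p below 0.05 numbered 4, all higher, and 4 to 5 with each library left out. limma-voom gave 5, all higher (ZBTB39 added). Surrogate variables gave 8, of which 7 were higher (ZBTB7A, ZBTB38 and ZBTB39 added) and 1 lower (ZBTB5). AT-rich barcodes gave 4 higher and 1 lower (ZBTB11), and thinning gave 2, both higher. ZBTB7A passed with surrogate variables (log2 fold change 0.20, edgeR adjusted p = 0.0103) and in none of the other alternatives, over which its log2 fold change was 0.04 to 0.16. ZBTB46 kept its direction and passed wherever it was tested, at 1.04 to 1.21. The direction turned in at least 1 alternative for 11 of the 29 tested members, 0 of which passed there, and in none for the other 18. The cause of these shifts was not tested, apart from the genes and libraries that a setting removes. No paired analysis was possible because the labels give no replicate numbers.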
